A study of Mus musculus with 9 samples.

Results

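The family of miR-15, miR-16, miR-195, miR-497, miR-322 and miR-503 was examined in small RNA libraries from the mouse hippocampus. Its 8 members were taken by name from the 1448 mature miRNAs that the authors counted, and all 8 were found. They are mmu-miR-15a-5p, mmu-miR-15b-5p, mmu-miR-16-5p, mmu-miR-195a-5p, mmu-miR-497a-5p, mmu-miR-322-5p, mmu-miR-503-5p and mmu-miR-322-3p. The last is the other arm of the miR-322 hairpin and does not share the family's seed.

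The mice were C57BL/6J, which the methods describe as male, and fell into 3 groups of 3 libraries. The saline group received 0.9% saline. The LPS group received a single intraperitoneal dose of 1 mg/kg LPS, a bacterial endotoxin that induces neuroinflammation, and 0.12% saline by the labels. The LPS + GAS group received the same LPS and 100 mg/kg GAS (gastrodin, a phenolic glucoside of an orchid rhizome), 1 h after LPS by the labels. The methods also have GAS given together with LPS, so the sources do not settle which came first. The labels give neither the age nor the time of collection of these mice. Nor do they say whether each library came from 1 animal, so p-values measure the spread between these libraries. LPS vs saline addresses the response to endotoxin, and LPS + GAS vs LPS addresses the effect of GAS on it.

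MiRNAs are short RNAs that pair with messenger RNAs, mainly through the seed near their 5′ end, and lower their translation or stability. Members of this family repress cyclins, other drivers of the cell cycle and the anti-apoptotic factor Bcl2, and are therefore known for slowing proliferation. They are made from several clusters, so the same seed can be supplied by different genes. In the brain, miR-195 and miR-497 are known from work on ischemia and amyloid processing, and miR-15a and miR-16 from work on apoptosis.

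The mature sequences are shown first because the seed decides which members can share targets. They are written 5′ to 3′, with bases 2 to 8, the seed, in capitals. All are identical in the deposited table and in RefSeq (GRCm38.p6).
miR-15a-5p: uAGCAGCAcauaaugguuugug
miR-15b-5p: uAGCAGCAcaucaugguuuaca
miR-16-5p: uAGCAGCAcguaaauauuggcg
miR-195a-5p: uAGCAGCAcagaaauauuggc
miR-497a-5p: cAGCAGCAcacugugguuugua
miR-322-5p: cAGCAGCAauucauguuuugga
miR-503-5p: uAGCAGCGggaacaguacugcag
miR-322-3p: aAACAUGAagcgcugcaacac

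The seed AGCAGCA was shared by 6 members, and no other of the 1448 rows carried it. MiR-503-5p had AGCAGCG, which differs at the last seed base. Bases 2 to 7 were AGCAGC in all 7 5p members and in no further row. MiR-322-3p had the seed AACAUGA, found in 1 row. Outside the seed the members diverged. MiR-16-5p and miR-195a-5p differed by G10A and U11G over the 21 bases that both have (90.5% identity), where position 1 is the first base of the 5′ end. MiR-15a-5p and miR-15b-5p differed by A12C, G20A, U21C and G22A (81.8% identity). MiR-503-5p was the most distant, with 45.5% to 54.5% identity to the other 5p members when aligned from the first base without gaps.

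The genes lie in 4 clusters (GRCm38.p6, with hosts from GENCODE M21). Mir15a (chr14:61632038-61632096, minus strand, span of its mature arms) lies in an intron of the long non-coding RNA gene Dleu2, and Mir16-1 (chr14:61631880-61631972, minus strand) overlaps an exon of it. Mir15b (chr3:69009772-69009835, plus strand) and Mir16-2 (chr3:69009902-69009996, plus strand) lie in introns of Smc4, a condensin subunit gene. Among annotated genes other than those of miRNAs, none overlaps Mir497 (chr11:70234717-70234800, plus strand) or Mir195a (chr11:70235042-70235135, plus strand). The same holds for Mir322 (chrX:53054255-53054349, minus strand) and Mir503 (chrX:53053984-53054054, minus strand). Within the clusters, 65 bases separate Mir15a from Mir16-1, 66 separate Mir15b from Mir16-2, 241 separate Mir497 from Mir195a and 200 separate Mir322 from Mir503. Mir16-1 and Mir16-2 give the same mature 5p sequence, so reads of miR-16-5p cannot be assigned to either.

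Between 10119758 and 11457656 reads per library fell on miRNAs. Levels are given as CPM, read counts scaled by edgeR to a common library total with TMM factors, and each ± is the SD of 3 libraries. The filter asked for 10 reads or more in 3 or more libraries, and it kept all 8 members and 628 miRNAs in all. To be called, a miRNA needed an adjusted p no higher than 0.05 together with a log2 fold change of 1 or more in size. The neuronal list (miR-124-3p, miR-9-5p, miR-128-3p and miR-138-5p) summed to 86473 to 127002 CPM over the libraries. Markers of other cells were present, and some lists were more uneven than others. The choroid plexus and ependyma list (10 miRNAs, of which 9 were tested) spanned 9390 to 57305 CPM, and the red blood cell list 2065 to 6222 CPM. The leukocyte list spanned 2569 to 6226 CPM, and the smooth muscle and pericyte list (miR-143-3p and miR-145a-5p) 3080 to 5753 CPM. Narrower was the endothelial list (miR-126a-3p and miR-126a-5p), at 13327.5 to 17141 CPM. No listed marker was at 0 in a whole group. In these bulk samples, fewer cells of a type and less of a miRNA per cell cannot be told apart.

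The members covered a wide range of levels. MiR-16-5p was the most abundant, with a mean of 9483 CPM over the 9 libraries, and ranked 20 to 28 among all miRNAs of a library. MiR-15a-5p followed at 1239 CPM, miR-497a-5p at 492 CPM, miR-322-5p at 408 CPM and miR-195a-5p at 347 CPM. MiR-15b-5p had 44.2 CPM, miR-322-3p 7.65 CPM and miR-503-5p 1.92 CPM. Each step of this order held in 9 of 9 libraries, apart from the closely spaced middle. There miR-497a-5p was above miR-322-5p in 8 of 9 libraries and miR-322-5p above miR-195a-5p in 7 of 9, so these neighbours were not separated by their spread. The levels compare reads of mature RNAs of 21 to 23 bases, without correction for how well each is captured in a library.

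**Figure D1:**
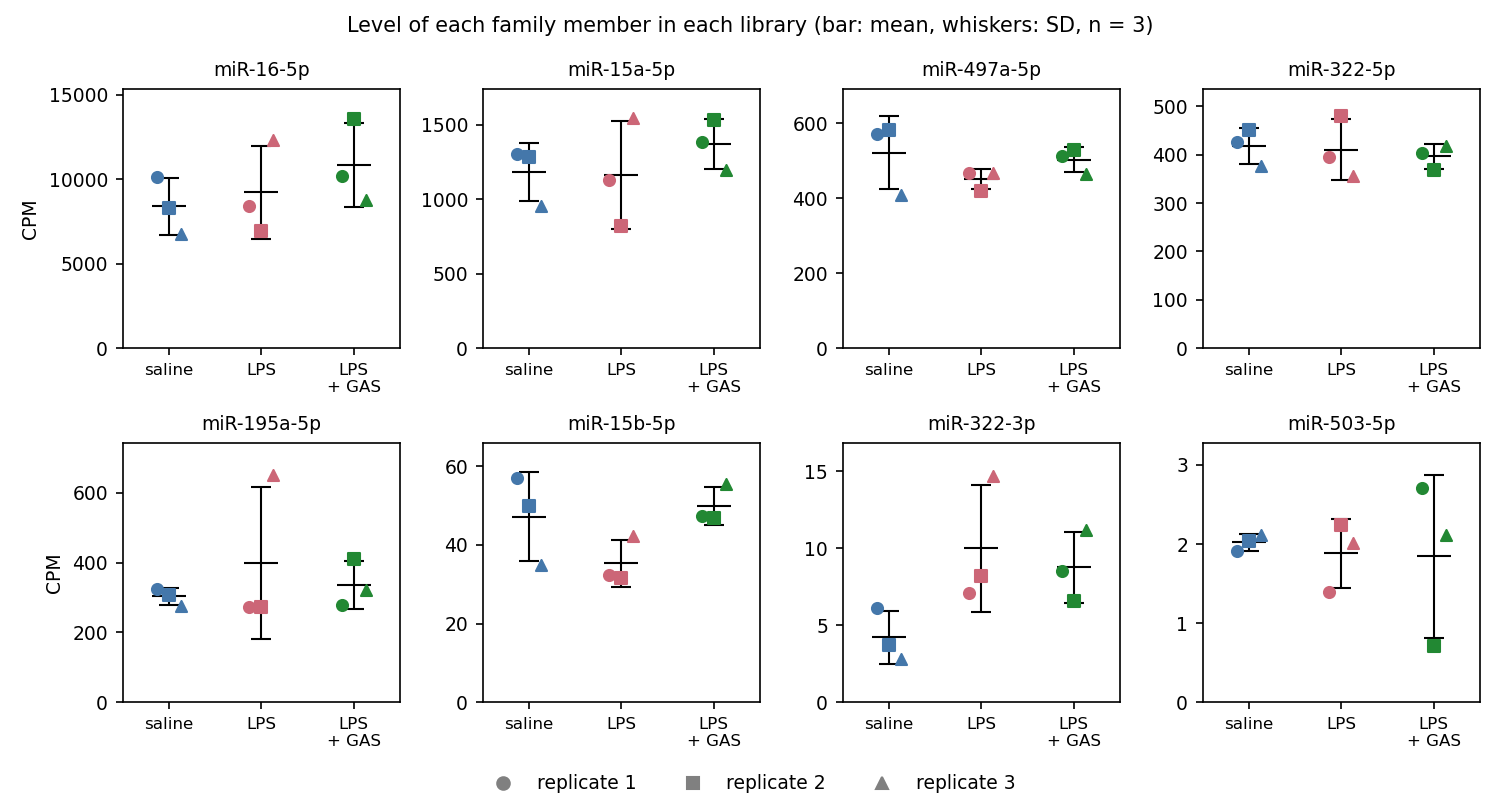
Level of each member (CPM, linear axes that start at 0 and differ between panels) in the saline, LPS and LPS + GAS libraries, with points for libraries, a horizontal bar for the mean and whiskers for the SD of 3 libraries. The groups overlapped for most members, the 3 saline libraries of miR-322-3p lay below all others, and LPS replicate 3 stood at 652 CPM for miR-195a-5p.

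The 7 5p members together took 0.830% to 1.59% of the reads of a library. The share was 1.06% ± 0.202 (SD, n = 3) in the saline group, 1.20% ± 0.254 (SD, n = 3) in the LPS group and 1.33% ± 0.243 (SD, n = 3) in the LPS + GAS group, and the ranges of the groups overlapped. MiR-16-5p made up 75.5% to 82.5% of these reads in every library, so the total of the family largely followed this single member.

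**Figure D2:**
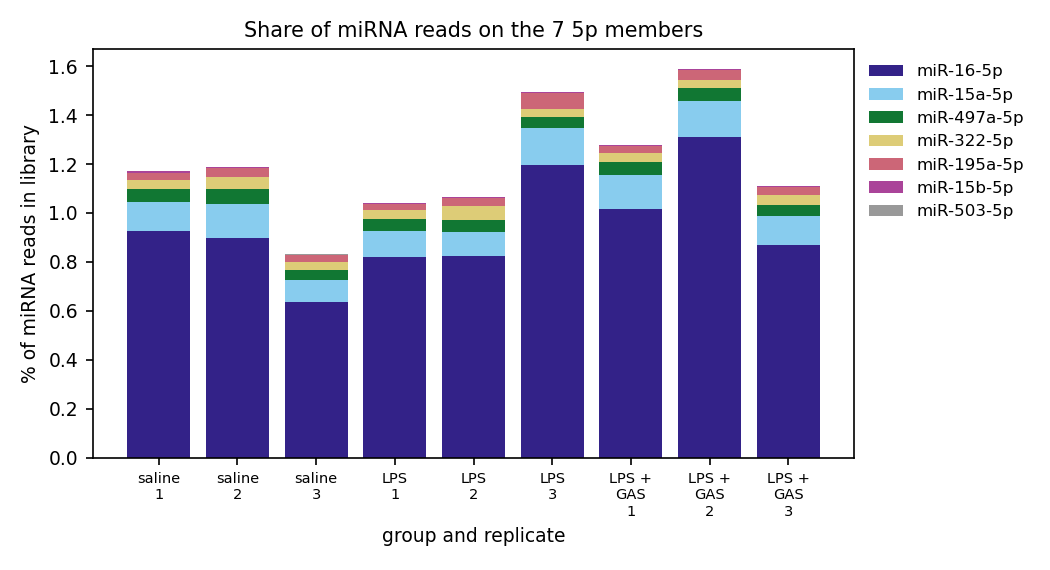
Share of all miRNA reads (%, stacked bars from 0) on the 7 5p members in each of the 9 libraries, with 1 colour for each member. The total lay between 0.830% and 1.59%, and miR-16-5p was the bulk of every bar.

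Across the comparisons, no member passed the test. The quasi-likelihood test of edgeR, with p-values adjusted by Benjamini and Hochberg's method, called 0 of 8 members in LPS vs saline, where it called 0% of all 628 miRNAs. For LPS + GAS vs LPS it called 0 of 8 (0% of all), and against saline the LPS + GAS group had 0 of 8 called (0.159% of all, 1 miRNA). DESeq2 and limma-voom also called 0 members in each comparison. At an unadjusted p under 0.05 in edgeR there was 1 member for LPS vs saline (2.39% of all miRNAs), 0 for LPS + GAS vs LPS (3.66%) and 1 for LPS + GAS vs saline (3.34%). In both cases it was miR-322-3p. The median log2 fold change of the 8 members was -0.02 for LPS vs saline, 0.06 for LPS + GAS vs LPS and 0.11 for LPS + GAS vs saline. Over all 628 miRNAs it was -0.04, 0.0030 and -0.03. Any 2 of these comparisons share 1 group of libraries, so they are not independent.

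**Figure D3:**
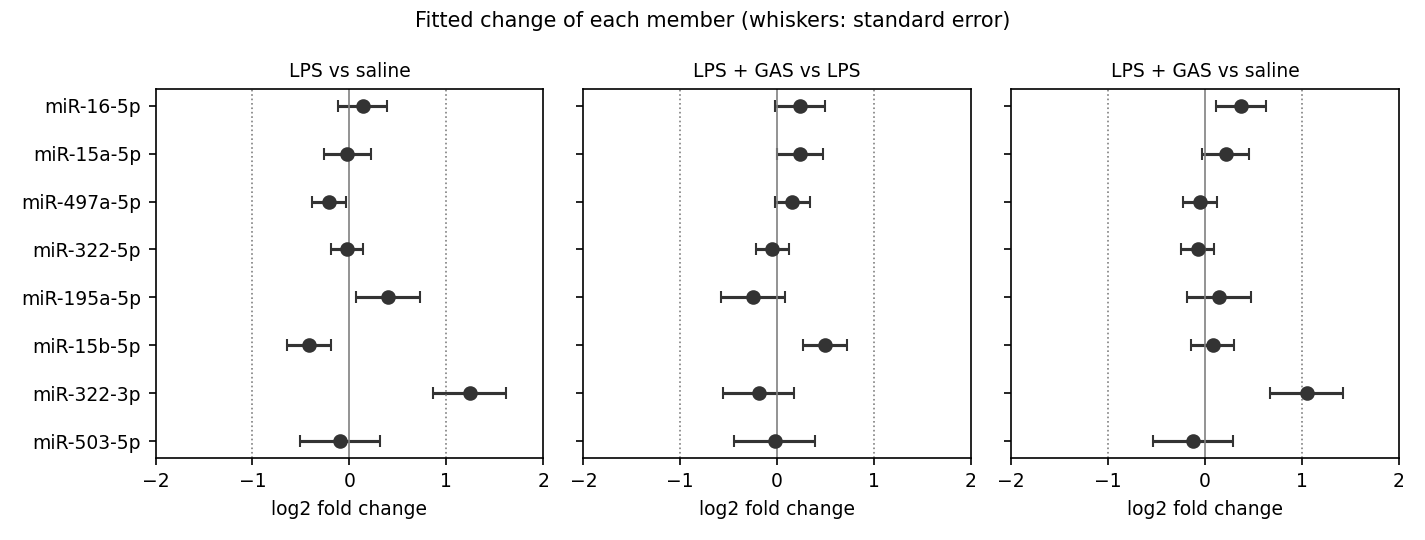
Fitted log2 fold change (x axis) of each member in the 3 comparisons, with points for estimates, whiskers for standard errors and dotted lines at an absolute value of 1. Only the estimates of miR-322-3p against saline lay beyond a dotted line, at 1.24 and 1.05, and neither passed the adjusted test.

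MiR-322-3p, the minor arm of the hairpin whose other arm is the mouse counterpart of human miR-424, separated the saline libraries from the rest. It had 64, 42 and 28 reads in saline replicates 1 to 3, which is 6.11, 3.71 and 2.82 CPM. With LPS there were 71, 99 and 146 reads (7.07, 8.22 and 14.7 CPM), and with LPS + GAS 91, 65 and 116 reads (8.49, 6.57 and 11.2 CPM). Every LPS and every LPS + GAS library was thus above every saline library, although saline replicate 1 was close to the lowest of them. Group means were 4.22 ± 1.70, 9.99 ± 4.11 and 8.75 ± 2.31 CPM (SD, n = 3 each).

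In LPS vs saline the log2 fold change of miR-322-3p was 1.24 (SE 0.38), with an adjusted p = 0.992 by edgeR, although its unadjusted p ranked 3 of 628. Against saline the LPS + GAS group gave 1.05 (SE 0.38), with an adjusted p = 0.998 by edgeR. Between LPS + GAS and LPS it was -0.19 (SE 0.36), with overlapping groups and an adjusted p = 0.989 in edgeR. The difference from saline was therefore seen in both groups that received LPS and was not called in either. Without LPS replicate 3, the highest library, the estimate in LPS vs saline was 0.86, and without saline replicate 1 it was 1.65. Over the 17 alternatives tried, its adjusted p ranged from 0.243 to 1.00. Groups that did not overlap were found for 1 of 8 members (miR-322-3p, higher) in LPS vs saline, against 3.82% of all miRNAs in either direction. For LPS + GAS vs saline it was again this 1 member, against 7.32% of all.

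The hairpin of Mir322 is shown because results are given for both of its arms (RefSeq, GRCm38.p6, minus strand, 95 bases). MiR-322-5p, at bases 23 to 44, and miR-322-3p, at bases 61 to 81, are in capitals.
Mir322: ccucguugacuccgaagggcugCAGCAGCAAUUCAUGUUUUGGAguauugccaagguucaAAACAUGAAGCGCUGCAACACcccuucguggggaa

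MiR-322-5p, the major arm, had 426, 451 and 377 CPM in the saline libraries, 395, 480 and 356 CPM with LPS and 404, 368 and 418 CPM with LPS + GAS. The 3 ranges overlapped. Its log2 fold change was -0.03 (SE 0.17) in LPS vs saline, a value that was above 0 under DESeq2's size factors (0.03), and -0.08 (SE 0.17) in LPS + GAS vs saline.

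The 3p arm took 1.41%, 0.818% and 0.743% of the reads on both arms in saline replicates 1 to 3. It took 1.76%, 1.68% and 3.96% with LPS and 2.06%, 1.75% and 2.61% with LPS + GAS. The saline libraries were the lowest 3 of the 9. However, the exact 95% interval of saline replicate 1 (1.09% to 1.80%) overlapped those of 4 libraries that received LPS. These were LPS replicates 1 (1.37% to 2.21%) and 2 (1.37% to 2.05%) and LPS + GAS replicates 1 (1.66% to 2.52%) and 2 (1.36% to 2.23%). These intervals cover counting error only. Written as the ratio of 5p to 3p reads, the mean log2 ratio was 6.70 ± 0.51 in saline, 5.42 ± 0.71 in LPS and 5.53 ± 0.29 in LPS + GAS (SD, n = 3 each).

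The difference in log2 ratio was -1.28 in LPS vs saline, with an exact two-sided permutation p = 0.1 (Benjamini-Hochberg adjusted over the 3 comparisons, 0.15). It was -1.17 between LPS + GAS and saline, with an exact permutation p = 0.1 (adjusted 0.15), and 0.11 in LPS + GAS vs LPS, with an exact permutation p = 0.9 (adjusted 0.9). With 3 libraries against 3, 0.1 is the smallest p this test can give, so it could not pass 0.05. Leaving out 1 library at a time gave -1.57 to -0.87 (the latter without LPS replicate 3) in LPS vs saline and -1.46 to -0.99 in LPS + GAS vs saline. Ratios of the groups did not overlap in either comparison, as for 5.38% and 9.68% of the 186 hairpins with counts on both arms. Between LPS + GAS and LPS the ratios of miR-322 overlapped, while 8.06% of hairpins had ratios that did not. In LPS vs saline 1 of the 186 hairpins had a larger absolute difference, that of miR-21a, and the median over all hairpins was 0.206. Between LPS + GAS and saline 5 did (miR-1298, miR-150, miR-21a, miR-331 and miR-448), with a median of 0.230. These hairpins were named after their values were seen. The differences were not scaled for depth, and the 3p arm of miR-322 had only 28 to 146 reads per library. Because miR-322-5p changed little, the ratio largely restates the difference of miR-322-3p and is not separate evidence for it. No other hairpin of the family was put to the permutation test.

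**Figure D4:**
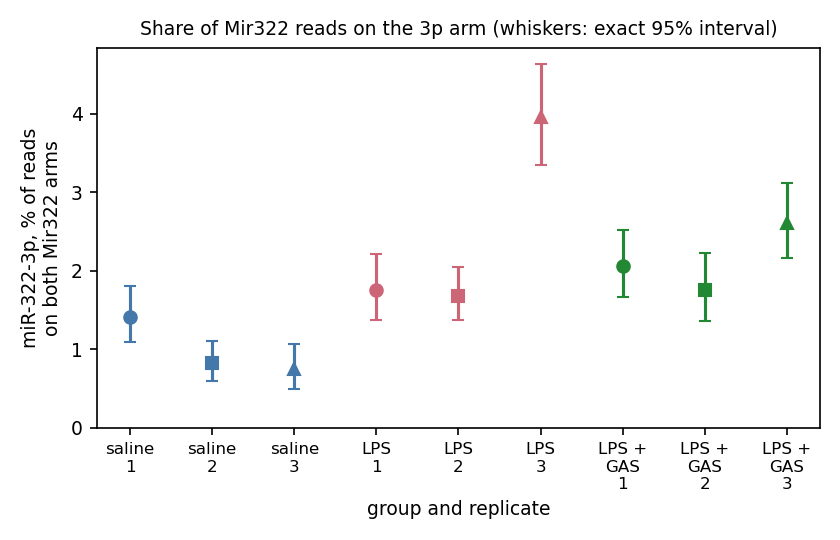
Reads of miR-322-3p as a percent of the reads on both arms of Mir322 (y axis, from 0) in each library, with whiskers for the exact 95% interval of counting error. The saline libraries lay between 0.743% and 1.41%, the LPS libraries between 1.68% and 3.96% and the LPS + GAS libraries between 1.75% and 2.61%.

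Other hairpins of the family could be compared where both arms had enough reads, which was so for Mir15a, Mir15b and Mir195a. Their geometric mean ratios of 5p to 3p reads in saline, LPS and LPS + GAS were 673, 913 and 741 for Mir15a, 36.6, 29.2 and 35.0 for Mir15b, and 49.6, 62.9 and 51.9 for Mir195a. In all of these the 5p arm predominated. Of 8 further rows, which are the other arms and the related miR-497b, 3 were tested (miR-15a-3p, miR-15b-3p and miR-195a-3p), and 0 passed at an unadjusted p under 0.05 in edgeR in any comparison. The other 5 were too sparse. MiR-16-1-3p had 1 read in the 9 libraries together, miR-16-2-3p 0 to 5 reads per library, miR-497a-3p 0 to 2, miR-497b 0 to 2 and miR-503-3p 2 to 9.

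MiR-503-5p, the cluster partner of miR-322 that is known for restraining cyclin D1, was the least abundant member. It had 20, 23 and 21 reads in saline, 14, 27 and 20 reads in LPS and 29, 7 and 22 reads in LPS + GAS. Means were 2.02 ± 0.104, 1.88 ± 0.439 and 1.84 ± 1.03 CPM (SD, n = 3 each), and the groups overlapped. Its log2 fold changes lay between -0.12 and -0.03 with standard errors of 0.41 in each comparison, so only a large change could have been seen at this depth.

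The same stretch of the X chromosome holds Mir351, Mir542, Mir450-1, Mir450-2 and Mir450b, the last of which lies 6176 bases from Mir322. Of their 9 mature arms, 5 were tested (miR-351-5p, miR-542-5p, miR-450a-5p, miR-450b-5p and miR-450b-3p), and 0 passed at an unadjusted p under 0.05 in edgeR in any comparison. MiR-542-5p had means of 32.3 ± 3.40, 26.8 ± 2.81 and 31.1 ± 1.86 CPM in saline, LPS and LPS + GAS (SD, n = 3 each). MiR-450b-3p had 4.60 ± 1.19, 3.25 ± 0.557 and 4.22 ± 0.608 CPM. The estimates in LPS vs saline were -0.50 (SE 0.26) for miR-450b-3p, -0.27 (SE 0.18) for miR-542-5p, -0.19 (SE 0.29) for miR-351-5p, -0.13 (SE 0.23) for miR-450a-5p and 0.11 (SE 0.56) for miR-450b-5p. Of the 5, 4 were thus below 0 and 1 was above, while that of miR-322-3p was above. The difference between neighbours and miR-322-3p was not tested.

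MiR-16-5p had 10122, 8263 and 6782 CPM in the saline libraries, 8434, 6932 and 12293 CPM with LPS and 10162, 13576 and 8787 CPM with LPS + GAS. Means were 8389 ± 1674, 9220 ± 2765 and 10842 ± 2466 CPM (SD, n = 3 each). The groups overlapped widely, and with 67285 to 134218 reads per library counting error was a minor part of this spread (a CV of about 0.3%, against 20% to 30% between libraries of a group). The log2 fold change was 0.14 (SE 0.26) in LPS vs saline, 0.23 (SE 0.26) in LPS + GAS vs LPS and 0.37 (SE 0.26) in LPS + GAS vs saline. Without LPS replicate 3, the first of these was -0.12.

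MiR-15a-5p had 1304, 1285 and 956 CPM in saline, 1127, 821 and 1545 CPM in LPS and 1381, 1531 and 1198 CPM in LPS + GAS. Its highest and lowest libraries were both in the LPS group, so the groups overlapped. Its log2 fold change was -0.02 (SE 0.24) in LPS vs saline, a value whose sign turned under several alternatives, and 0.23 (SE 0.24) in LPS + GAS vs LPS.

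Across the 9 libraries miR-15a-5p and miR-16-5p, whose genes are neighbours in Dleu2, varied together. Pearson's r of log2(CPM + 1) was 0.916 (exact permutation p = 0.00065, adjusted 0.00325 over the 5 pairs of cluster partners tested, n = 9). Spearman's rho was 0.917 (exact permutation p = 0.00131, adjusted 0.00656, n = 9). Without the 2 libraries farthest from the median of the first member r was 0.907, and within groups, from deviations around group means, it was 0.928. The relation thus did not rest on differences between the groups.

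The other pairs of cluster partners did not pass. For miR-15b-5p and miR-16-5p r was 0.501 (rho 0.367, exact permutation p = 0.170 and 0.336, n = 9). For miR-195a-5p and miR-497a-5p r was 0.126 (rho 0.500, exact permutation p = 0.761 and 0.178, n = 9), and 0.637 without the 2 farthest libraries. For miR-322-5p and miR-503-5p r was 0.413 (rho 0.450, exact permutation p = 0.278 and 0.230, n = 9). For the arms of miR-322 r was -0.16 (rho -0.18, exact permutation p = 0.681 and 0.644, n = 9). Adjusted p-values of these pairs were 0.383 or above.

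MiR-15b-5p, made from the intron of Smc4, had 56.9, 49.9 and 34.9 CPM in the saline libraries. It had 32.2, 31.7 and 42.2 CPM with LPS and 47.3, 46.9 and 55.4 CPM with LPS + GAS. Every LPS + GAS library was above every LPS library, while the saline libraries overlapped both groups. The log2 fold change in LPS + GAS vs LPS was 0.50 (SE 0.23), with an adjusted p = 0.903 by edgeR. For LPS vs saline it was -0.42 (SE 0.23), with an adjusted p = 0.992 by edgeR, and in LPS + GAS vs saline 0.08 (SE 0.22), or -0.10 without saline replicate 3. MiR-15b-5p was the 1 member of 8 whose LPS and LPS + GAS libraries did not overlap, against 8.60% of all miRNAs in either direction.

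The red blood cell list (miR-451a, miR-144-3p, miR-144-5p, and miR-486a-5p and miR-486b-5p, which have the same sequence) moved with miR-15b-5p. It summed to 3983, 4317 and 2065 CPM in the saline libraries, 2279, 2189 and 3274 CPM with LPS and 4606, 4979 and 6222 CPM with LPS + GAS, most of it miR-451a. None of its 5 rows was at 0 in a group. As for miR-15b-5p, the LPS + GAS libraries were all above the LPS libraries, which among its single rows held for miR-451a. It also held for 1 of 4 leukocyte markers (miR-223-3p) and for 1 of 9 tested choroid plexus and ependyma markers (miR-449a-5p). The sums of those lists overlapped. For leukocytes they were 2569 to 6226 CPM in LPS and 3679 to 5598 CPM in LPS + GAS, most of it miR-150-5p. For choroid plexus and ependyma they were 9479 to 22349 and 12065 to 57305 CPM, most of it miR-204-5p. The smooth muscle and pericyte sum did not overlap, at 3080 to 3881 CPM in LPS and 3944 to 5547 CPM in LPS + GAS. Each of its single rows did overlap between these groups. Sums of the neuronal and endothelial lists overlapped. Over the 9 libraries, r between the red blood cell sum and miR-15b-5p was 0.905 (exact permutation p = 0.00201, adjusted 0.0161 over the 8 members, n = 9). This relation was looked at after the data had been seen. No other marker list was correlated with the members, and the adjustment does not cover the choice of the red blood cell list.

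By rank the relation was weaker, with rho 0.717 (exact permutation p = 0.0369, adjusted 0.259, n = 9). Without the 2 farthest libraries r was 0.840, and within groups it was 0.950. For the other 7 members r lay between -0.11 and 0.679 (miR-15a-5p), with adjusted p-values of 0.173 or above by exact permutation over n = 9 libraries. Within groups r was 0.742 for miR-497a-5p, 0.739 for miR-322-3p and 0.639 for miR-15a-5p, and lay between 0.0016 and 0.541 for the other 4. Without the 2 farthest libraries, however, r of these 7 members lay between -0.05 (miR-195a-5p) and 0.256 (miR-322-5p). For miR-16-5p, which is abundant in red blood cells, r was 0.580 (exact permutation p = 0.105, n = 9). The part of red blood cells, leukocytes, smooth muscle, pericytes, choroid plexus or ependyma in the difference of miR-15b-5p was not tested.

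**Figure D5:**
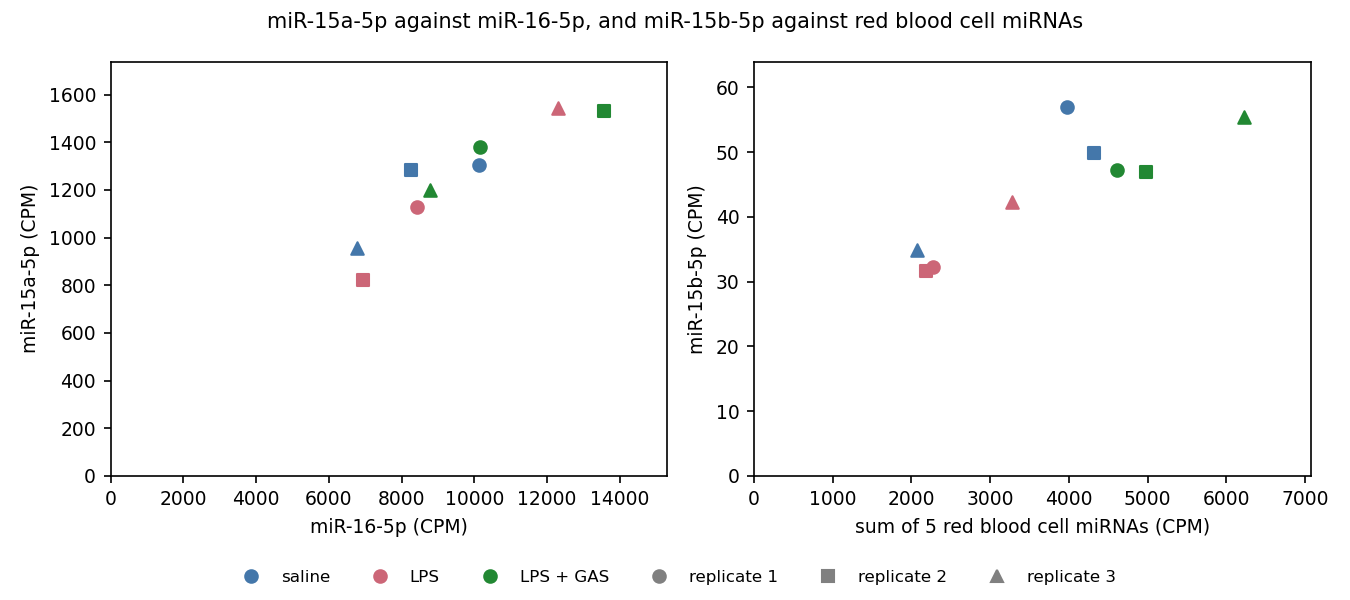
Left, miR-15a-5p against miR-16-5p (CPM on both axes), and right, miR-15b-5p against the sum of the 5 red blood cell miRNAs (CPM on both axes), with 1 point for each of the 9 libraries, coloured by group and shaped by replicate. Both pairs varied together, with r of 0.916 and 0.905 on the log2 scale. The second relation was looked at after the data had been seen and was weaker by rank (rho 0.717).

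MiR-195a-5p, known in the brain as a repressor of the amyloid-processing enzyme Bace1, was decided by 1 library. It had 325, 309 and 277 CPM in saline, 273, 274 and 652 CPM in LPS and 277, 412 and 320 CPM in LPS + GAS. LPS replicate 3 was above all others, and the other 2 LPS libraries were below all saline libraries. The log2 fold change in LPS vs saline was 0.40 (SE 0.33, adjusted p = 0.992 by edgeR), and -0.15 without LPS replicate 3. MiR-195a-3p, from the other arm of the same hairpin, had 5.08, 5.57 and 6.94 CPM in the LPS libraries and did not stand apart in replicate 3 to this degree, being within the range of all libraries (5.08 to 7.59 CPM).

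MiR-497a-5p, from the same cluster as miR-195a-5p, had 573, 582 and 409 CPM in saline, 467, 419 and 468 CPM in LPS and 514, 530 and 465 CPM in LPS + GAS. LPS replicate 3 was not high here, and the 3 groups overlapped. Its log2 fold change was -0.21 (SE 0.18) in LPS vs saline and 0.16 (SE 0.18) in LPS + GAS vs LPS, with adjusted p-values of 0.992 and 0.950 by edgeR.

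The miRNAs whose levels followed miR-16-5p most closely over the 9 libraries, among those tested, were miR-15a-5p (r = 0.916), miR-146a-5p (r = 0.882) and miR-10b-5p (r = 0.881). Those that followed miR-322-3p most closely were miR-3093-5p (r = 0.806), miR-329-3p (r = 0.783) and miR-466g (r = 0.771). These are descriptions with no test, over libraries that share their scaling, and the closest among many miRNAs are always high.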

How the data were processed

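Small RNA was sequenced on a BGISEQ-500 from hippocampus, in 9 libraries (3 saline, 3 LPS, 3 LPS + GAS). The authors deposited the counts, reads per mature miRNA in each library without normalization. They also deposited another value named exp, of a scale not stated, whole numbers that exceeded the read count in 0 cases, used only as an alternative. The submitters' processing notes name GRCm38.p6, and no source used here names the aligner. The table's averages and the authors' comparisons (log2 fold changes, p-values and q-values) were not used. All per-library columns were matched to samples by name.

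The analysis used edgeR 4.0.16 (R 4.3.3). A miRNA was kept if 3 or more of 9 libraries had 10 or more reads (628 of 1448). Kept counts were scaled by TMM and fitted with glmQLFit, with a mean per group. Each contrast went through glmQLFTest, and p-values were adjusted over the 628 (Benjamini-Hochberg). A call needed an adjusted p no higher than 0.05 and a log2 fold change of 1 or more in size, the study's thresholds. Permutation tests were exact and two-sided, over 20 divisions of 6 libraries or 362880 pairings of 9 (Python 3.11.15, scipy 1.17.1). Correlations used log2(CPM + 1). Shares have exact binomial intervals of 95%.

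Replicates differed beyond counting error (chi-square over degrees of freedom 304 to 769 per pair). Depth was 10119758 to 11457656 reads, so 10 reads are about 1 CPM. The median standard error was 0.28 in each contrast. In simulated data for LPS vs saline (614 miRNAs, 194 changed by a log2 fold of 2), edgeR recovered 186 and called 6 of 420 unchanged ones. High dispersions were capped in the simulation. No smaller fold was simulated, so it does not show how often a log2 fold change near 1 would be called.

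The replicate number is the only source of a pairing. For LPS + GAS vs saline, libraries with the same number had deviations from the group means that correlated (0.224 to 0.275 over 3 pairs). In the other comparisons the signs were mixed, at 0.338, 0.218 and -0.257 for LPS vs saline and -0.153, 0.0318 and -0.238 for LPS + GAS vs LPS. The alternatives were DESeq2 1.42.0 size factors and Wald test, limma-voom 3.58.1, other filters, the exp values, a replicate block, a fit of the 2 groups compared and each library left out.

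The members and the lists were chosen with earlier results of these data known. Named outside the members were the other arms and neighbours of their hairpins, cell type markers, and the 3 miRNAs most like miR-16-5p and miR-322-3p. Sequences and positions came from RefSeq and GENCODE M21, where Mir15a and Mir351 had no hairpin entry.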

Additional observations from a re-analysis of the deposited data

How the results depend on the processing

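The number of members called was 0 in each comparison under all 18 alternatives. Of 405 values of single members, 364 kept their direction and 41 did not, and 0 were called under any setting. In LPS vs saline, DESeq2's size factors gave 0.029 for miR-15a-5p and 0.030 for miR-322-5p, as did its Wald test (0.029 and 0.030). No filter on low counts gave 0.020 and 0.014, at least 50 reads in 3 libraries 0.0056 and 0.0020, and the exp values 0.018 and 0.030. In LPS + GAS vs saline, DESeq2's size factors and Wald test both gave 0.0068 for miR-497a-5p.

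Leaving out each library in turn gave, in LPS vs saline, -0.28 to 0.21 for miR-15a-5p, -0.12 to 0.34 for miR-16-5p, -0.15 to 0.64 for miR-195a-5p, -0.13 to 0.084 for miR-322-5p and -0.21 to 0.077 for miR-503-5p. For LPS + GAS vs LPS it gave -0.46 to 0.30 for miR-195a-5p, -0.14 to 0.093 for miR-322-5p, -0.39 to 0.20 for miR-322-3p, -0.41 to 0.35 for miR-503-5p and -0.30 to 0.33 for the arm ratio of miR-322. For LPS + GAS vs saline it gave -0.098 to 0.28 for miR-15b-5p, -0.020 to 0.33 for miR-195a-5p, -0.20 to 0.091 for miR-497a-5p, -0.14 to 0.035 for miR-322-5p and -0.46 to 0.26 for miR-503-5p. Without LPS replicate 3, miR-16-5p, miR-195a-5p and miR-322-5p turned in LPS vs saline, and miR-195a-5p, miR-322-3p, miR-503-5p and the arm ratio turned in LPS + GAS vs LPS. The arm ratio also turned without LPS + GAS replicate 2 (-0.03), as did miR-195a-5p and miR-503-5p against saline, and miR-15b-5p turned there without saline replicate 3. The causes were not tested.

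With the replicate number as a block, the log2 fold change of miR-322-3p was 1.20 for LPS vs saline and 1.01 for LPS + GAS vs saline, and the block changed no call. MiR-503-5p was not tested at a minimum of 50 reads. MiR-503-5p had 7 to 29 reads per library, with a CV from counting of 21.7% to 22.7%. MiR-322-3p had 28 to 146, with a CV from counting of 9.7% to 15%, against 26.4% to 41.1% between libraries of a group.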

Other observations

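The exp value, whose making is not stated, was a share of the reads that differed between members. It was 56.4% to 70.5% of the reads of miR-16-5p, 91.3% to 94.4% for miR-15a-5p, 96.1% to 97.1% for miR-497a-5p, 96.6% to 97.9% for miR-322-5p, 96.3% to 98.3% for miR-195a-5p, at least 99.2% for miR-15b-5p and 100% for miR-322-3p and miR-503-5p. The share was thus lowest for the most abundant member.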
